A study of Mus musculus with 4 samples.

Results

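10 of the 31053 genes in the count tables formed the set described here, namely the VEGF receptors Kdr, Flt1 and Flt4, the co-receptor Nrp1, the VEGF family ligands Vegfc and Pgf, the angiopoietin receptor Tek with its partner Tie1, and the ligands Angpt1 and Angpt2. They were chosen by gene symbol, with earlier results of these data known. VEGF ligands act on tyrosine kinase receptors at the surface of endothelial cells and drive the growth, sprouting and permeability of vessels. Angiopoietins act through Tek, also called Tie2, and set the stability of vessels once formed, with Angpt1 as an activating ligand and Angpt2 as a ligand whose effect depends on context. In the fetal testis, endothelial cells migrate in from the adjacent mesonephros and form the coelomic vessel.

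Single-cell RNA-seq was obtained from 4 libraries of mouse cells, 1 per condition. Of these, 3 came from XY gonads of ICR embryos at E10.5, E11.5 and E12.5, for which the labels gave no transgene. The E10.5 tissue included the surrounding dorsal mesenchyme, whereas the later gonads were taken without the mesonephros. The fourth library, called D6, held cells on culture day 6 from XY embryonic stem cells of a single line, N271S9C, which carried a Nr5a1-hCD271 reporter (written Nr5a1-hCD27a in the labels) and a Sox9-2A-CGFP reporter. The labels gave its strain as C57BL/6J, whereas the study's methods gave a cross of 129X1/SvJ with C57BL/6J. These cells had been exposed in sequence to FGF2 and Activin A, then CHIR99021, BMP4 and EGF, then retinoic acid, SHH, PD0325901, EGF and BMP4, and finally BMP4, FGF9 and IWR1. Cells positive for the Nr5a1 reporter were then enriched on magnetic columns. Version 3 of the 10x Genomics 3′ kit was used for D6, and version 2 for the gonads. Kit, strain, culture and enrichment therefore cannot be told apart from origin, and no test between conditions was possible because each had 1 library.

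Cells within the study's limits on detected genes and mitochondrial share numbered 3837, 2101, 2764 and 2285, where sets of 4 values stand throughout in the order E10.5, E11.5, E12.5, D6. Their median depth ran from 4607 UMIs (unique molecular identifiers, one per captured transcript) at D6 to 11926 at E11.5. Beyond the study's upper limits on genes, no doublets were removed. The in vivo libraries shared 7 to 15 cell barcodes in each pair, whereas none was shared with D6. Cells with at least 1 UMI of at least 2 of Pecam1, Cdh5, Emcn and Esam were taken as endothelial. They numbered 61, 65, 47 and 21, or 1.59%, 3.09%, 1.70% and 0.919% of the cells. At E10.5 an upper limit of 5000 genes instead of 4000, as in the common cell limit used below, gave 88 endothelial cells. Somatic classes were cells with a UMI of Sox9, Pdgfra or Upk3b, genes known from supporting cells, from interstitial and mesenchymal cells and from the coelomic epithelium. They are named by that gene and not by cell type. In Sox9 cells at least 1 Sertoli cell marker was found in 12.1%, 67.3%, 69.4% and 23.3%, and at least 1 interstitial marker in 67.8%, 50.0%, 46.6% and 87.0%, so that at E10.5 and D6 the markers went against a supporting cell label. In Upk3b cells at least 1 coelomic epithelium marker was found in 61.1%, 85.7%, 87.5% and 80.6%. At least 1 interstitial marker was found in 77.2%, 93.2%, 96.5% and 96.2% of them. The interstitial share was the higher in each library, so that these markers did not set the Upk3b cells apart as coelomic epithelium. These classes overlapped, with Sox9 cells making up 14.1% to 34.6% of the Pdgfra cells and 13.2% to 27.6% of the Upk3b cells. Pdgfra cells made up 14.0% to 44.0% of the Upk3b cells. Levels per class below are those of the overlapping classes unless stated.

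Further endothelial markers were then examined in the gated cells. At least 1 of 8 genes that were not used in the gate, among them Cldn5 and Robo4, was present in 98.4%, 95.4%, 91.5% and 71.4% of the gated cells, but also in 31.5% to 75.0% of the somatic classes. At least 2 of them were present in 98.4%, 80%, 76.6% and 71.4% of the gated cells and in 4.79% to 24.2% of the somatic classes. Markers of other cells were also present. At least 1 germ cell marker was found in 0%, 29.2%, 25.5% and 4.76% of the gated cells, at least 1 megakaryocyte marker in 8.20%, 21.5%, 23.4% and 9.52%, and at least 1 erythroid marker in 50.8%, 72.3%, 68.1% and 0%. An erythroid marker was also found in 42.4% to 74.4% of the somatic classes in vivo and in 0% at D6. At least 1 of 6 macrophage markers was found in 6.56%, 3.08%, 2.13% and 0%, with Csf1r, C1qa and C1qb at 0 in all 4 libraries. At least 1 interstitial marker was found in 39.3%, 53.8%, 53.2% and 57.1% of the gated cells, and at least 1 Sertoli cell marker in 16.4%, 16.9%, 27.7% and 4.76%. The part of these cells in each level below was not tested. Leaving out gated cells with a germ cell, megakaryocyte or macrophage marker kept all 7 members called below as higher in endothelial cells. That fit does not bear on this part, because cells with an erythroid, interstitial or Sertoli cell marker were not removed for it. For Flt1, Flt4, Tek and Tie1 a lower result was also not open, as described below.

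Reference sequences upstream of Flt1, Tie1, Tek and Kdr are shown because these receptors differed strongly between endothelial and somatic cells. They are RefSeq sequences of GRCm38.p6, 5′ to 3′ on the strand of the gene. Each runs up to the first annotated base of the gene, and capitals mark the letters AGGAAG or CGGAAG on either strand, which are bound by ETS factors. Flt1 is shown from chr5:147726012-147726261 on the minus strand, Tie1 from chr4:118490062-118490099 on the minus strand, Tek from chr4:94739039-94739288 on the plus strand and Kdr from chr5:75978459-75978705 on the minus strand.
Flt1: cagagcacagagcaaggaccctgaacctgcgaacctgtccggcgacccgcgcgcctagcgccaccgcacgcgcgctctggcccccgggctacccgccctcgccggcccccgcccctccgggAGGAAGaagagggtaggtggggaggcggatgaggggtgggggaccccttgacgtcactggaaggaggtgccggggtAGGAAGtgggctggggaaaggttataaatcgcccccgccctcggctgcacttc
Tie1: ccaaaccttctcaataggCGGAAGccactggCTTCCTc
Tek: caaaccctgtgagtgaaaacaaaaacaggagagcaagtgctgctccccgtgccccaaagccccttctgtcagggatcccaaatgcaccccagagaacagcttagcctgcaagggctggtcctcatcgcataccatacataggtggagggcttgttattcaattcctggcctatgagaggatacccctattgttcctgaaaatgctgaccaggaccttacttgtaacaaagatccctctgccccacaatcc
Kdr: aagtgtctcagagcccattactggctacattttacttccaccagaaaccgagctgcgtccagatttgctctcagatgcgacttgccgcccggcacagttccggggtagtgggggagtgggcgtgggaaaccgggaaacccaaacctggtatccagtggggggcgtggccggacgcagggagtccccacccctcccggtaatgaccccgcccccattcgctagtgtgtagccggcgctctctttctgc

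The Flt1 sequence held the ETS letters at -129 and -53, and the Tie1 sequence held them at -232 and -219. Positions count from the transcript start of each listed promoter. For Tie1 this start lies inside the annotated gene, so that only 38 of the 250 bases before it are shown. The Tie1 promoter also held the letters at 33, after the start and outside the sequence shown. Neither the Tek nor the Kdr sequence held the ETS letters. Promoters of 300 bases (250 before the start and 50 after it) were listed for 8 of the 10 genes, Pgf with 2 of them, while Angpt1 and Angpt2 were without an entry. Of these 9 promoters, 3 held the ETS letters (33.3%), compared with 46.5% of 32851 promoters of the same length. The GATA letters AGATAA were in 1 of 9 against 11.2%, and CANNTG, the E-box letters, in 6 of 9 against 72.3%, both strands being searched. A match is a description of the letters and not of binding.

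The 10 genes lie on 6 chromosomes. In GRCm38 (GENCODE vM21), Kdr occupies chr5:75932827-75978458, Flt1 chr5:147561604-147726011, Flt4 chr11:49609263-49652739, Nrp1 chr8:128358604-128503363 and Vegfc chr8:54077606-54187096. Pgf occupies chr12:85166635-85177790, Tek chr4:94739289-94874976, Tie1 chr4:118471191-118490061, Angpt1 chr15:42424723-42676977 and Angpt2 chr8:18690263-18741562. Counts from the 3′ end belong to the whole gene, so that soluble and membrane forms of Flt1 or Nrp1 were not separated, and levels are not ranked between genes.

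Levels are given as CPM, the UMIs of a gene per 1000000 UMIs of a class in a library, with exact 95% Poisson intervals that cover counting error only. Kdr, the main signalling receptor for VEGF-A, in endothelial cells was at 185.1 (153.3 to 221.5, 119 UMIs), 184.0 (158.8 to 212.0), 198.8 (168.4 to 233.2) and 287.8 (212.9 to 380.5, 49 UMIs). All of these intervals overlapped except those of E11.5 and D6, which also overlapped with a gate of 3 markers (255.8, 216.4 to 300.3, and 358.0, 264.9 to 473.4). That gate left 46, 35, 29 and 15 cells and raised the E12.5 level to 305.5. Kdr was detected in 82.0%, 66.2%, 68.1% and 57.1% of the endothelial cells. With cells thinned to 2000 UMIs, and those below that depth left out, it was detected in 32.8%, 27.1%, 40.4% and 47.6%. The order of the libraries by share was thus not the same after thinning. In the pooled somatic cells (Sox9, Pdgfra or Upk3b positive, outside the gate) Kdr was at 1.87, 22.8, 5.48 and 14.9. Endothelial cells were thus higher by 98.7-fold (65.3 to 153.7), 8.08-fold (6.75 to 9.64), 36.3-fold (28.3 to 46.6) and 19.3-fold (13.2 to 27.9).

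**Figure D1:**
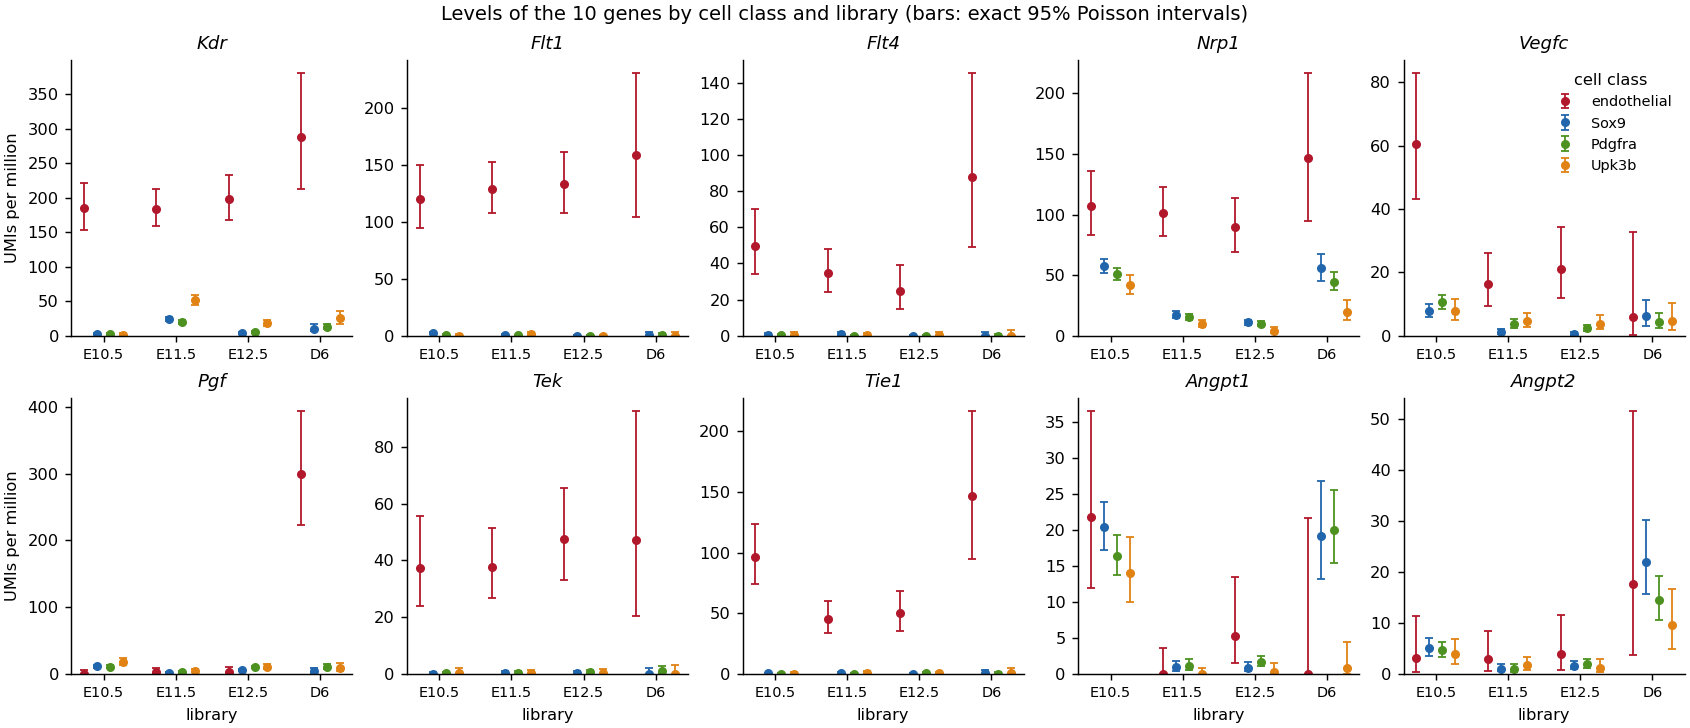
Level of each of the 10 genes (CPM, linear axis from 0, scaled per gene) in endothelial, Sox9, Pdgfra and Upk3b cells of each library, as points with exact 95% Poisson intervals. Flt1, Tek and Tie1 were near or at 0 outside the endothelial cells, whereas Nrp1 was also present in the somatic classes.

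Flt1, which binds VEGF-A and Pgf and can act as a decoy, in endothelial cells was at 119.8 (94.5 to 149.7), 129.1 (108.1 to 152.9), 133.0 (108.3 to 161.6) and 158.6 (104.5 to 230.7). The 4 intervals overlapped. In the pooled somatic cells it was represented by 9, 7, 0 and 2 UMIs. The endothelial level was 206-fold higher at E10.5 (103 to 467) and 309-fold at E11.5 (146 to 782). At E12.5, with a floor of 3 UMIs for the somatic cells of that library, it was 947-fold higher, with an exact lower limit of 756. At D6 the ratio was 420 with an interval of 105 to 3640, since it rested on 2 somatic UMIs.

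Flt4, the receptor of VEGF-C that is best known from lymphatic endothelium, was at 49.8 (34.0 to 70.3), 34.7 (24.3 to 48.0), 25.0 (15.1 to 39.1) and 88.1 (49.3 to 145.3) in endothelial cells. The D6 level, which rested on 15 UMIs, lay above those of E11.5 and E12.5 without overlap. With the gate of 3 markers it was at 109.6 (61.3 to 180.8) and overlapped both E11.5 at 48.1 (31.9 to 69.5) and E12.5 at 39.9 (23.6 to 63.0). Somatic cells held 4, 2, 3 and 0 Flt4 UMIs in all.

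Tek, the angiopoietin receptor, was at 37.3 (23.9 to 55.5), 37.6 (26.7 to 51.4), 47.4 (33.2 to 65.6) and 47.0 (20.3 to 92.6) in endothelial cells. These intervals overlapped throughout. Tie1, an orphan receptor that modulates Tek signalling, was at 96.4 (73.9 to 123.6), 45.3 (33.3 to 60.2), 50.0 (35.4 to 68.7) and 146.8 (95.03 to 216.8). The intervals of E10.5 and D6 lay above those of the other 2 libraries without overlap. With the gate of 3 markers E11.5 was at 80.7 (59.3 to 107.3) and E12.5 at 79.7 (55.8 to 110.3), which overlapped E10.5 at 104.9 (78.4 to 137.6) but not D6 at 182.7 (118.2 to 269.7). No Tie1 UMI was found in 1703 pooled somatic cells at E10.5 or 1330 at E11.5. With the same floor the endothelial level was 497-fold and 252-fold higher, with exact lower limits of 392 and 197. At E12.5 the ratio was 214 (84.0 to 696) on 5 somatic UMIs, and at D6 it was 777 (127 to 31896) on 1.

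Nrp1, a co-receptor that binds VEGF-A and also semaphorins, was at 107.3 (83.5 to 135.8), 101.1 (82.7 to 122.4), 89.5 (69.5 to 113.5) and 146.8 (95.03 to 216.8) in endothelial cells, with overlapping intervals. In the pooled somatic cells it was at 49.8, 14.0, 9.45 and 44.4. The endothelial level was 2.15-fold higher (1.66 to 2.76), 7.20-fold (5.67 to 9.10), 9.47-fold (7.09 to 12.52) and 3.31-fold (2.10 to 5.00).

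The ligand Vegfc, which drives lymphatic and venous sprouting through Flt4, in endothelial cells was at 60.7 (43.1 to 82.9, 39 UMIs in 16 of 61 cells), 16.4 (9.54 to 26.2), 21.1 (12.0 to 34.2) and 5.87 (0.149 to 32.7, 1 UMI). The E10.5 level lay above the other 3 without overlap. Its interval met that of E12.5 with the gate of 3 markers (49.2 to 98.2 and 20.2 to 57.5) and with a common cell limit (29.9 to 53.5 and 13.99 to 37.3). Of the 39 UMIs at E10.5, 15 came from the top 2 cells. At E11.5, 7 of the 17 UMIs came from 1 cell. At E12.5, 8 of the 16 UMIs came from 1 cell that also had 3 megakaryocyte markers. Vegfc was also present at lower levels in the pooled somatic cells, at 9.12, 2.75, 1.87 and 5.29.

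Pgf, a ligand of Flt1, was at 0 in 61 endothelial cells at E10.5 (at most 4.67 CPM for a count of 3), at 2.89 at E11.5 (3 UMIs) and at 2.63 at E12.5 (2 UMIs). At D6 it was at 299.6 (223.0 to 393.9, 51 UMIs). The 51 UMIs came from 7 of the 21 cells, which held 16, 9, 7, 6, 5, 5 and 3. Each of these 7 cells had 3 or 4 of the gate genes, 6 of them had at least 3 of Kdr, Flt1, Flt4, Tek and Tie1, and none had a UMI of Sox9, Pdgfra or Upk3b. The pooled somatic cells held Pgf at 11.2, 2.21, 7.63 and 8.13, so that endothelial cells were 36.9-fold higher at D6 (24.1 to 56.6). At E10.5 the somatic cells were 2.40-fold higher with a floor of 3 endothelial UMIs. The ratio of endothelial to somatic level there was at most 0.518 by its exact interval.

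Angpt1 and Angpt2 were sparse in endothelial cells. Angpt1 was at 21.8 (11.9 to 36.5, 14 UMIs in 8 cells), 0 (at most 2.89 for a count of 3), 5.27 and 0 (at most 17.6). All 4 UMIs at E12.5 lay in 1 cell that also had 5 megakaryocyte markers. Angpt2, which is best known from sprouting endothelium, was represented by 2, 3, 3 and 3 UMIs in the endothelial cells, at 3.11, 2.89, 3.95 and 17.6 CPM, which is no more than the 3 UMIs that bound a count of 0.

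The difference between endothelial and somatic cells was then tested across genes. Cells of 1 class only were summed per class and library, giving 16 sums, with 17 to 57 cells in the endothelial ones, and edgeR's quasi-likelihood test with Benjamini-Hochberg adjustment was fitted to 10833 genes with library as a term. Since the 4 libraries differ in stage and origin, the test asks whether a class difference recurs over them. Of the 10 genes, 7 were higher in endothelial cells than in the mean of the 3 somatic classes and 0 lower, while 14.1% of all genes were higher and 14.3% lower. Flt1, Flt4, Tek and Tie1 held 14, 6, 13 and 3 UMIs over the 12 somatic sums. They passed the filter on low counts only through the endothelial sums, so that a lower result was not open to them. The median log2 difference was 3.94 over the 10 genes and -0.06 over all genes.

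**Figure D2:**
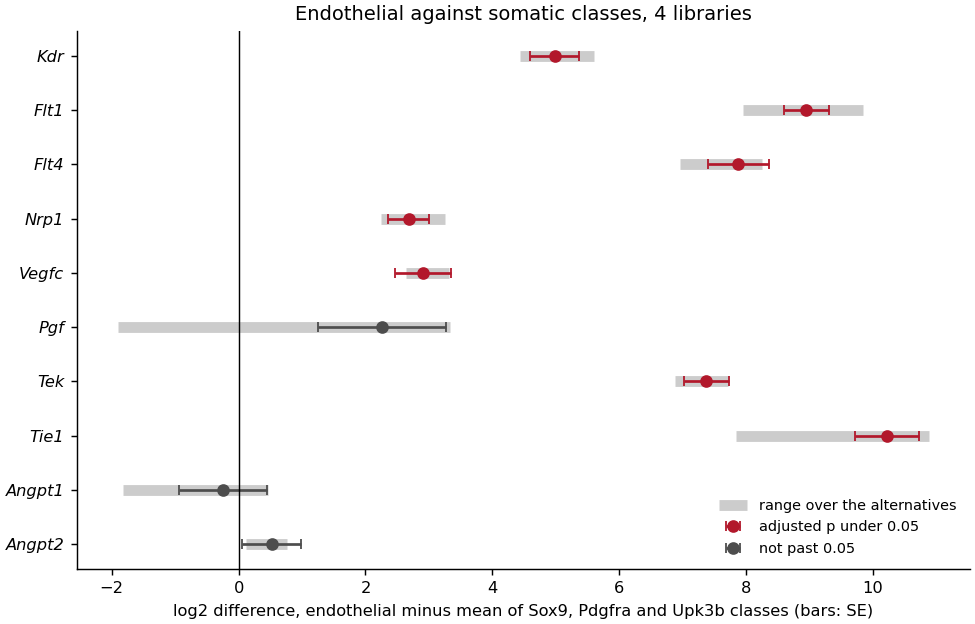
Log2 difference of endothelial cells from the mean of the Sox9, Pdgfra and Upk3b classes for the 10 genes, as points with standard errors derived from edgeR's F statistic on 16 sums, over grey bars that span the alternative fits. The 7 genes past the threshold were all higher, and Pgf, Angpt1 and Angpt2 were not past it.

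Tie1 showed a log2 difference of 10.22 ± 0.50 (SE; edgeR adjusted p = 2.24e-06), the fourth highest of the 10833 genes when ordered by difference. It rested on only 3 somatic UMIs in the 12 somatic sums, so that its size depends on the prior count of the fit. Each SE was derived as the absolute log2 difference over the square root of edgeR's F statistic. For genes with so few somatic UMIs such an SE is not a measure of counting error. Flt1 showed 8.95 ± 0.36 (edgeR adjusted p = 5.60e-10), Flt4 7.88 ± 0.48 (3.08e-08) and Tek 7.37 ± 0.35 (3.14e-09), with 14, 6 and 13 somatic UMIs. Kdr, with 364 somatic UMIs, differed by 4.98 ± 0.39 (edgeR adjusted p = 4.18e-07). Vegfc differed by 2.90 ± 0.44 (adjusted p = 0.00023) and Nrp1 by 2.68 ± 0.33 (adjusted p = 3.34e-05). These 7 genes stayed past the threshold in each of 13 alternative fits.

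The remaining ligands were not past the threshold. Pgf differed by 2.26 ± 1.01 (edgeR adjusted p = 0.109), and without the D6 library its sign turned to -1.91 (adjusted p = 0.177). It was past the threshold in 3 of 13 alternatives, without the filter on low counts (adjusted p = 0.0329), without the library term (0.0414) and without E10.5 (3.34, adjusted p = 0.0145). Angpt1 differed by -0.25 ± 0.69 (adjusted p = 0.832) and Angpt2 by 0.52 ± 0.47 (adjusted p = 0.478).

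Several receptors were often detected in the same endothelial cell. Of Kdr, Flt1, Flt4, Nrp1, Tek and Tie1, the median endothelial cell had 3, in all 4 libraries. At least 3 were present in 62.3%, 58.5%, 61.7% and 61.9% of the endothelial cells, but in at most 0.521% of any somatic class. Of the Flt1-positive endothelial cells, 28 of 30, 36 of 39, 29 of 29 and 9 of 11 also had Kdr, against 22 of 31, 7 of 26, 3 of 18 and 3 of 10 Flt1-negative cells. Cells with Flt4 had Kdr in 20 of 21, 18 of 18, 12 of 12 and 10 of 10 cases, and cells without Flt4 in 30 of 40, 25 of 47, 20 of 35 and 2 of 11. Tek was detected in 15 of 34, 8 of 20, 14 of 21 and 3 of 10 Tie1-positive cells and in 3 of 27, 16 of 45, 7 of 26 and 1 of 11 Tie1-negative cells. At least 1 of the 6 was present in 93.4%, 75.4%, 74.5% and 76.2% of the gated cells, so that the other gated cells had none. Those other cells count among the Flt1-negative, Flt4-negative and Tie1-negative cells above and lower the shares with Kdr or Tek there. Depth was not matched between the groups, and the part of either in these contrasts was not tested.

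Among somatic cells, Kdr was the only member called between classes, a count too small to set apart from the background shares given below. In Upk3b cells it was at 1.75, 51.1, 18.4 and 25.3. In Sox9 cells it was at 3.12, 23.7, 3.76 and 10.4, and in Pdgfra cells at 2.64, 20.0, 5.29 and 12.8. At E11.5, E12.5 and D6 the order was thus Upk3b cells first, with the Sox9 and Pdgfra cells close to each other, whereas at E10.5 all 3 classes were low. Kdr was detected in 33.1% of the Upk3b cells at E11.5, against 2.54% of 197 germ cells outside the gate, whose median depth of 16686 UMIs exceeded the 13946.5 of the Upk3b cells. Thinned to 2000 UMIs, the Upk3b shares were 0.968%, 8.14%, 3.89% and 4.30%.

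**Figure D3:**
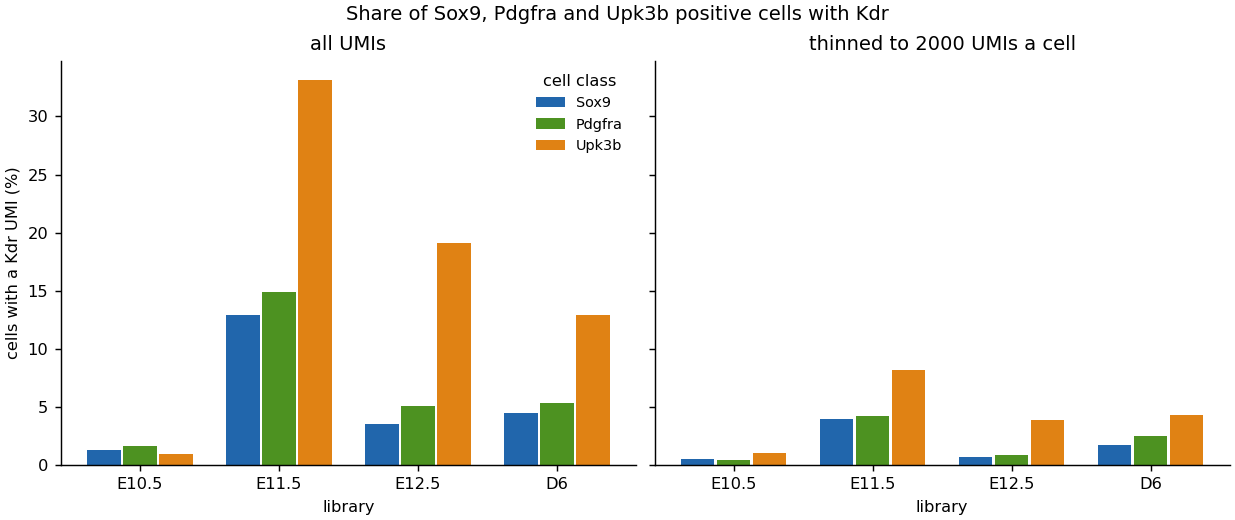
Share of Sox9, Pdgfra and Upk3b cells with at least 1 Kdr UMI (%) in each library. All UMIs are used on the left. On the right, cells were thinned to 2000 UMIs, and those below that depth were left out. Upk3b cells reached 33.1% at E11.5 with all UMIs and 8.14% after thinning.

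In edgeR, Kdr was higher in Upk3b than in Sox9 cells by 2.01 ± 0.58 on the log2 scale (adjusted p = 0.0458). It was 1 of the 10 genes called in this comparison, with none lower, while 4.14% of all genes were higher and 4.74% lower. The call was past the threshold in 7 of 13 alternatives, with adjusted p from 0.00255 to 0.422. It was lost without E11.5 (0.165), without E12.5 (0.294) and without D6 (0.122). Against Pdgfra cells the Upk3b difference was 1.57 ± 0.56 (adjusted p = 0.175), and 0 of the 10 genes were called at backgrounds of 1.79% higher and 1.23% lower, while 1 gene passed an unadjusted 0.05 and DESeq2 also called 0. Between Pdgfra and Sox9 cells 0 were called as well, with 3.97% of all genes higher and 6.13% lower, 1 gene at an unadjusted 0.05, and 0 by DESeq2.

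The Kdr-positive Upk3b cells were examined for endothelial markers. At E11.5 they numbered 102 of 308, of which 93 (91.2%) had no gate gene, 2 were in the gate and 4 had Flt1, Tie1 or Tek. None of the 8 further endothelial markers was present in 20.6% of them and in 43.2% of the Kdr-negative Upk3b cells. Nr5a1, a gene of the gonadal somatic lineage, was detected in 27.5% and 37.4%, and the median depth was 15149.5 and 13050.5 UMIs. The part of depth in these differences was not tested.

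Nrp1 was present in all 3 somatic classes, at 57.4, 17.3, 10.99 and 55.6 in Sox9 cells, 51.1, 15.4, 9.87 and 44.4 in Pdgfra cells and 42.0, 9.72, 4.13 and 19.8 in Upk3b cells. In each library the Upk3b level was the lowest of the 3. The difference between Upk3b and Sox9 cells was -0.95 ± 0.42 on the log2 scale and was not past the threshold (edgeR adjusted p = 0.174).

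Angpt1, the activating Tek ligand, was at 20.4, 0.908, 0.845 and 19.1 in Sox9 cells. In Pdgfra cells it was at 16.3, 1.07, 1.66 and 20.0, and in Upk3b cells at 14.0, 0, 0.275 and 0.791. At D6, Angpt1 was therefore near the level of E10.5 in Sox9 and Pdgfra cells but not in Upk3b cells. Angpt2 was at 5.02, 1.01, 1.60 and 22.0 in Sox9 cells, 4.56, 0.9501, 1.90 and 14.4 in Pdgfra cells and 3.85, 1.62, 1.10 and 9.497 in Upk3b cells. Germ cells outside the gate held Angpt2 at 2.36 at E11.5 and 2.21 at E12.5, so that the somatic levels of these stages were not above those of the germ cells. Whether the germ cell level is a background was not tested.

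Vegfc and Pgf showed no called difference between the somatic classes. Vegfc was at 7.73, 1.31, 0.564 and 6.37 in Sox9 cells, 10.6, 3.80, 2.37 and 4.38 in Pdgfra cells and 7.71, 4.63, 3.85 and 4.75 in Upk3b cells. Pgf was at 10.99, 1.31, 5.64 and 4.05 in Sox9 cells, 10.6, 2.61, 10.3 and 10.0 in Pdgfra cells and 17.5, 4.63, 10.7 and 8.71 in Upk3b cells. In each of the 3 classes Vegfc was lowest at E12.5 and Pgf at E11.5.

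**Figure D4:**
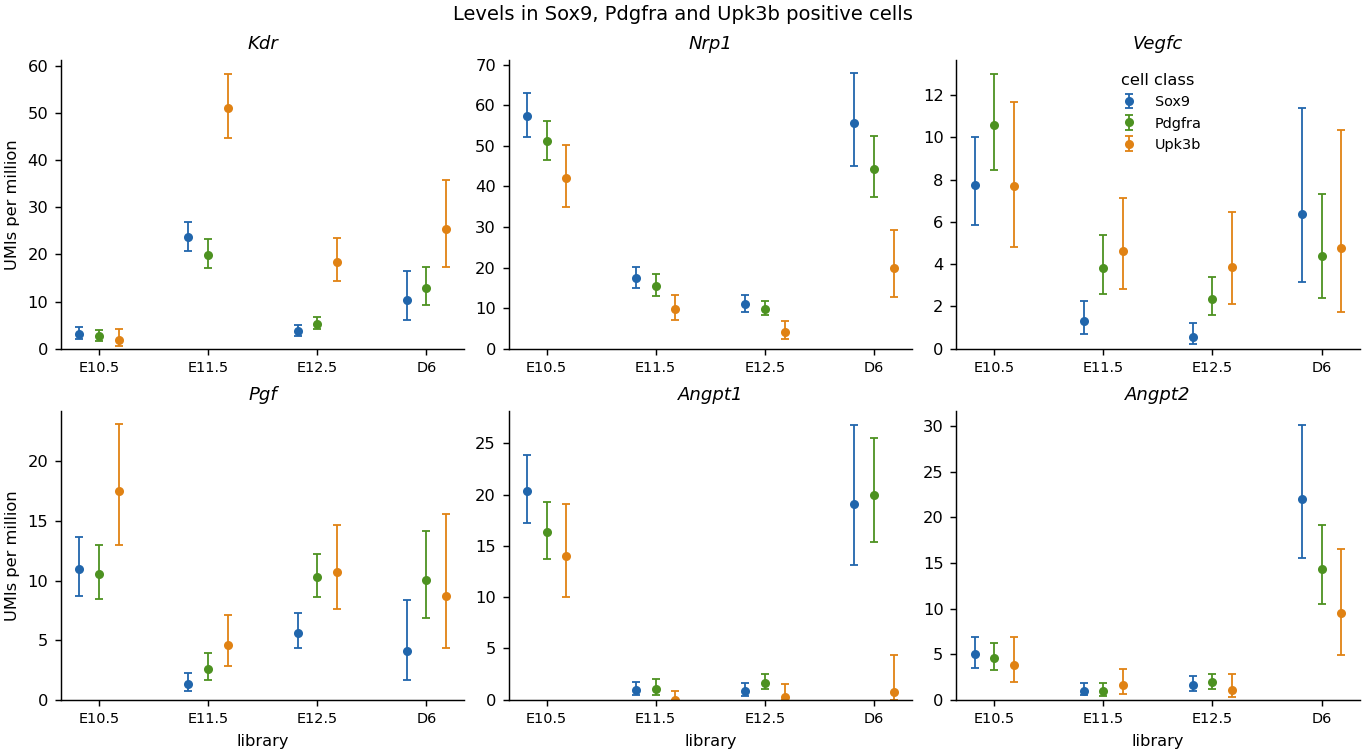
Level of Kdr, Nrp1 and the 4 ligands (CPM, linear axis from 0) in Sox9, Pdgfra and Upk3b cells of each library, with exact 95% Poisson intervals. Angpt1 and Nrp1 were low at E11.5 and E12.5 and higher at E10.5 and D6 in Sox9 and Pdgfra cells.

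Differences between conditions were described by size, since each condition had 1 library. A gene was counted when its level differed at least 2-fold in CPM and 1 of the sums compared held at least 20 UMIs. In endothelial cells from E10.5 to E12.5, 1 of 7 genes was lower and 0 were higher, at backgrounds of 5.11% and 6.06%. The gene was Vegfc, 2.88-fold lower (1.57 to 5.52), which fell under the limit with the gate of 3 markers (1.99-fold) and with the common cell limit (1.71-fold). From E12.5 to D6, Pgf and Tie1 were higher among 6 genes and 0 were lower, at backgrounds of 12.9% and 14.1%. The ratio was 2.93 for Tie1 (1.70 to 4.99) and 114 for Pgf (29.9 to 965), which rested on 2 UMIs at E12.5.

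From E10.5 to E12.5, Sox9 cells showed 4 of 6 genes lower and 0 higher, where 11.4% of all genes were lower and 16.7% higher. Nrp1 was 5.22-fold lower, Vegfc 13.7-fold (on 6 UMIs at E12.5), Angpt1 24.1-fold (on 9 UMIs at E12.5) and Angpt2 3.14-fold. The same 4 genes were lower in Pdgfra cells, where 7.6% of genes were lower and 14% higher, by 5.18-fold, 4.46-fold, 9.84-fold and 2.41-fold. Kdr was 2.00-fold higher there, at the limit. In Upk3b cells Nrp1 was 10.2-fold lower, Vegfc 2.00-fold lower, at the limit, and Angpt1 was lower on 1 UMI at E12.5, with a ratio of 50.9 (8.63 to 2061), while Kdr was 10.53-fold higher (4.29 to 33.5). The backgrounds there were 6.43% lower and 8.95% higher. The calls at the limit fell under it with the common cell limit, Kdr in Pdgfra cells to 1.67-fold and Vegfc in Upk3b cells to 1.84-fold. Pgf in Sox9 cells, 1.95-fold lower and not counted, was 6.68-fold lower with cells of 1 class only (10 UMIs at E12.5 and 47 at E10.5). The dissected tissue differed between these stages, and so did the make-up of the Sox9 cells (Sertoli cell markers in 12.1% at E10.5 and 69.4% at E12.5, interstitial markers in 67.8% and 46.6%), and their part was not tested.

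From E12.5 to D6, several of these genes were higher. Sox9 cells showed 4 of 5 genes higher and 0 lower, at backgrounds of 26.5% and 8.97%, with Kdr at 2.77-fold (1.496 to 4.95), Nrp1 at 5.06-fold (3.82 to 6.68) and Angpt1 at 22.6-fold (10.6 to 53.7, on 9 UMIs at E12.5). Angpt2 was at 13.8-fold (7.59 to 26.0), over an E12.5 level of 17 UMIs that was not above the germ cell level, so that the size of this fold is uncertain. Pdgfra cells showed the same 4 of 6 genes higher, at backgrounds of 26.8% and 8.63%, by 2.42-fold, 4.50-fold, 12.1-fold and 7.59-fold, with the same limit for Angpt2. The Sox9 cells differed in make-up here too (Sertoli cell markers in 69.4% at E12.5 and 23.3% at D6), and its part was not tested. In Upk3b cells 1 of 3 genes, Nrp1, was higher by 4.79-fold, at backgrounds of 20.9% and 6.96%. Over all 8 comparisons 25 of 44 pairs of gene and class were counted. The comparisons share the E12.5 sums, and the classes share cells, so that this total does not count separate results. Shares over all genes are those given for each comparison. With each cell thinned to 2000 UMIs only 14 pairs still reached 20 UMIs, among them 9 of the 25, and all 9 stayed past 2-fold.

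Other genes of the pathway were taken from lists and compared between endothelial and somatic cells in the same edgeR fit. Over all genes 14.1% were higher and 14.3% lower there. Vegfd, Angpt4, Erg, Hey2, Apln, Prox1, Lyve1, Stab2 and Dok2 were listed too but did not pass the filter on low counts. That filter also keeps genes present in the endothelial sums alone, which can only come out higher, so that the counts per list are descriptions. Of 6 other VEGF and angiopoietin ligands and co-receptors tested, 4 were higher and 2 lower, with a median log2 difference of 3.66. The phosphatase gene Ptprb, whose product acts on Tek, differed by 6.56 (adjusted p = 2.87e-07), the semaphorin receptor Plxnd1 by 5.01 (1.22e-07), the TGF-β co-receptor Eng by 5.79 (1.16e-06) and Nrp2 by 2.32 (0.000528). Vegfa, the principal ligand of Kdr, was lower in endothelial cells by -1.61 ± 0.42 (edgeR adjusted p = 0.0111), and so was Vegfb, named after its values were seen, by -0.77 ± 0.18 (0.0055). Vegfa was at 6.51, 23.6, 16.7 and 78.1 CPM in Sox9 cells, 5.16, 27.0, 26.6 and 118.5 in Pdgfra cells and 3.11, 3.85, 5.27 and 41.1 in endothelial cells.

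Of 9 endothelial transcription factors tested, 9 were higher, with a median of 6.71, while 14.1% of all genes were higher and 14.3% lower. Sox17 differed by 10.31, Sox7 by 9.90, Lmo2 by 8.65, Tal1 by 8.22 and Sox18 by 6.71. Of 9 tip, Notch and apelin genes, 8 were higher and 0 lower, with a median of 3.88. The Notch ligand Dll4 differed by 9.14, the tip cell gene Esm1 by 8.57 and the apelin receptor Aplnr by 7.94. Of 3 venous and lymphatic genes tested, 2 were higher and 1 lower, while Prox1, Lyve1 and Stab2 were not tested. Stab1 differed by 8.08, and Nr2f2, which is also used by interstitial cells, by -1.26 (edgeR adjusted p = 0.0222). Of 5 signal partners of the receptors, 3 were higher and 0 lower, namely Nos3 (4.63), Foxo1 (2.05) and Plcg1 (0.90).

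The genes whose pattern over the 16 sums was most like that of each receptor were then listed by Pearson's r of log2(CPM + 10), as a description, since the sums share libraries and depth. For Kdr they were Pecam1 (0.95), Myzap (0.95) and Esam (0.94), of which Pecam1 and Esam belong to the gate. For Flt1 they were Sox7, Tek and Icam2, for Tek they were Flt1, Sox7 and Myct1, and for Flt4 they were Tie1, Adgrl4 and Apold1. Nrp1 was most like Ebf1 (0.94), Limch1 (0.93) and Fli1 (0.88).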

How the data were processed

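Single-cell RNA-seq of 4 mouse libraries was analysed from the count matrices that the authors deposited, which hold raw UMI counts per gene and cell barcode on mm10 (GRCm38). Per the labels they were made with Cell Ranger 3.0.2, whereas the matrix headers name version 6.0.0. The labels' extraction protocol calls the gonads female, whereas the titles give them as XY.

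Cells were kept within the study's limits for each library, with over 1000 and under 4000 genes and under 10% mitochondrial counts for E10.5, 500, 5000 and 20% for E11.5, 2000, 5000 and 8% for E12.5, and 1000, 4000 and 12% for D6. This left 11906360 to 34173977 UMIs per library. Shares carry exact Clopper-Pearson and levels exact Poisson intervals, which cover counting error only. Counts of single-class cells were summed by class and library and tested in R 4.3.3 with edgeR 4.0.16 (quasi-likelihood, TMM, library as a term, Benjamini-Hochberg adjustment, threshold 0.05). The fit was also run on simulated counts with the same gene means in every library. Their changes were smaller than those called for the members in endothelial cells, so that the simulation does not bear on these calls. All p-values measure the spread of a class difference over 4 unlike libraries. Class and library sums shared their cells' library, and no condition had a replicate.

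Alternatives were DESeq2 1.42.0, its size factors in edgeR, no filter on low counts, no library term, a gate of 3 markers, overlapping classes, a common cell limit, 2 UMIs for a positive cell, no germ cell, megakaryocyte or macrophage marker in the gate, thinning to 2000 UMIs and each library left out. Named genes were all 10 members, at most 5 called genes of each list with the largest absolute log2 difference, and the 3 genes with the highest r for each member. The members and lists were chosen with earlier results of these data known. Shares after thinning leave out cells with fewer than 2000 UMIs. Levels and figures were made with Python 3.11.15.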

Additional observations from a re-analysis of the deposited data

How the results depend on the processing

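The 7 endothelial calls among the 10 genes kept their direction and their side of the threshold in all 13 alternatives. For Flt1, Flt4, Tek and Tie1, with 14, 6, 13 and 3 somatic UMIs, a lower result was not open. Their kept direction is therefore not a result, and only Kdr, Nrp1 and Vegfc could have turned. Over all genes, 3082 were called between endothelial and somatic cells, 1349 without the library term and 1848 to 2859 with a library left out. Between Pdgfra and Sox9 cells 1094 were called, 1916 without the filter, 6 without the library term, 463 with overlapping classes and 11 to 2601 with a library left out, the 11 without E11.5. Between Upk3b and Sox9 cells 963 were called, 1548 without the filter, 70 without the library term and 73 to 2392 with a library left out. Of the 10 genes, 1 was called there, 0 without the library term, with overlapping classes or with 2 UMIs for a positive cell, and 0 to 2 with a library left out. Between Upk3b and Pdgfra cells 327 were called, 498 by DESeq2, 627 without the filter, 14 without the library term, 539 with overlapping classes, 216 with 2 UMIs and 37 to 807 with a library left out. Of the 10 genes, 0 were called there, 1 without the filter and 0 to 1 with a library left out. The causes were not tested. Differences of at least 2-fold between conditions numbered 25 of 44 pairs tested and 9 of 14 with thinning, which left too few UMIs in the other pairs. These totals are descriptions of pairs that share sums and cells. The shares over all genes given above for each comparison belong to the counts without thinning. Of the 25, 1 fell within 2-fold with the gate of 3 markers and 3 with the common cell limit. With cells of 1 class only, 22 of the 25 were still tested, 1 of which, Kdr in Pdgfra cells, fell within it. Calls were also gained. With cells of 1 class only, Pgf in Sox9 cells was 6.68-fold lower at E12.5 than at E10.5. With the common cell limit, Flt4 in endothelial cells was 2.12-fold lower at E12.5 than at E10.5 and 3.15-fold higher at D6 than at E12.5. Flt1 in Sox9 cells was lower at E12.5 (0 UMIs) than at E10.5 (27 UMIs) with that limit. The gate of 3 markers moved 15 of 40 endothelial levels outside their intervals. Over the levels of all classes, thinning moved 58 and kept 102. Cells of 1 class only moved 32 and kept 128, and the common cell limit moved 4 and kept 156. With cells of 1 class only, Kdr in Sox9 cells at E10.5 fell from 3.12 to 0.818 CPM (4 UMIs).

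Signs turned for Pgf in endothelial cells without D6, the range with a library left out being -1.91 to 3.34, and for Angpt1 there with overlapping classes (0.46) and 2 UMIs (0.073). Between Pdgfra and Sox9 cells they turned for Kdr with overlapping classes (-0.0059), for Angpt1 without the library term (-0.12) and without E12.5 (-0.067 to 0.14 with a library left out), and for Angpt2 without D6 (-0.28 to 0.13). Between Upk3b and Pdgfra cells Vegfc turned without the library term (-0.040), with the common cell limit (-0.035), and without E12.5 or D6 (-0.17 to 0.33). None of the turned values passed the threshold. The median of all genes was -0.06, -0.33 without the filter and -0.13 with the marker-free gate. No paired analysis between conditions was possible because each condition had 1 library, whereas classes were compared within libraries through the library term. In the 21 endothelial cells of D6, with 170252 UMIs in all, 3 UMIs were worth 17.6 CPM.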

Other observations

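For the members not described above, the genes with the most similar pattern over the 16 sums, as a description, were Lcp1, Flt4 and Cav2 for Tie1, Spns1, Arhgdib and Ripply3 for Vegfc (r of 0.93, 0.92 and 0.92), Dusp8, Pik3cb and Fhod1 for Pgf (0.94, 0.92 and 0.91), Hmgcll1, Slc38a6 and Eid2 for Angpt1 (0.95, 0.89 and 0.89) and Tmem161b, Nrip1 and Kirrel3 for Angpt2 (0.96, 0.96 and 0.95). Cells in none of the 4 classes numbered 2073, 706, 856 and 1318 in the order E10.5, E11.5, E12.5, D6. The endothelial level of Dll4, a Notch ligand of tip cells, was 29.6, 22.2, 35.5 and 182.1 CPM in the same order. That of Plxnd1, a semaphorin receptor, was 130.7, 112.7, 97.4 and 440.5 CPM.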
